A study of Mus musculus with 6 samples.

Results

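The fibrinogen chain genes Fga, Fgb and Fgg were examined in bulk RNA sequencing of mouse kidney, as 3 of the 17550 genes of the deposited table, chosen by gene name. They were chosen with their difference between the genotypes already known, so their levels are described without a test. The groups were 3 libraries labelled Control and 3 labelled KC-Tie2, a psoriasis model in which the transgene, the receptor Tie2, is expressed in skin keratinocytes. Neither group had a treatment in the labels, both were perfused with saline, and neither sex, age, strain, transgene promoter nor any control genotype beyond the word Control is stated in the labels. The deposited table of the authors' own comparison calls the same group WT. No label says that the samples of a group came from different animals, so the p-values below measure the spread between samples, which may be technical. Estimated depth was 18800000 to 29500000 reads per library, and mitochondrial genes took 12.8% to 14.2% of each.

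Fibrinogen is the soluble plasma protein from which clots are made. Each molecule is a disulphide-linked dimer, and each side of it holds an alpha, a beta and a gamma chain, the products of Fga, Fgb and Fgg. Thrombin removes short peptides from the alpha and beta chains, the resulting fibrin polymerises, factor XIII cross-links it and plasmin dissolves it. Hepatocytes are the main source, where interleukin-6 acting through STAT3, with C/EBP factors, raises all chains in the acute phase response. Kidney tubule epithelium is a known further site of expression, mainly after injury.

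The 3 genes lie side by side on chromosome 3 within 42.1 kb, in the order Fgg, Fga, Fgb (deposited coordinates, build mm39 of the submitters' processing notes). Fgg (ENSMUSG00000033860) spans 82915031 to 82922356 and Fga (ENSMUSG00000028001) 82933383 to 82940934, both on the plus strand. Fgb (ENSMUSG00000033831) spans 82947448 to 82957170 on the minus strand, so it is read toward Fga. The gaps are 11 kb between Fgg and Fga and 6.5 kb between Fga and Fgb.

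The 250 bases before the annotated start of each gene are shown because they are the promoter stretches in which the factors named above are known to act. They come from RefSeq on build GRCm38.p6, not the build of the values, and are read 5′ to 3′ on the gene's strand. Capitals mark CTGGGA, the core of the interleukin-6 response element.
Fgg (chr3:83007474-83007723, plus strand): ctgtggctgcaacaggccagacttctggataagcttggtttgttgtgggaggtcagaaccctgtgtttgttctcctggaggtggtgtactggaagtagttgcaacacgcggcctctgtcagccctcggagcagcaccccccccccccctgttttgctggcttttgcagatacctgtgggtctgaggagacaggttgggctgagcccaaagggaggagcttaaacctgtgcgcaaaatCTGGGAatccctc
Fga (chr3:83025903-83026152, plus strand): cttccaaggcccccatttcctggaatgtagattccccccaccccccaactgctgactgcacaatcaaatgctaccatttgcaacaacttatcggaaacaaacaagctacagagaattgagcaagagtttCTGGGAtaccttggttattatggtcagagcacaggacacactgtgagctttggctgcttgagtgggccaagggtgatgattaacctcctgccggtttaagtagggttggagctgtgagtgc
Fgb (chr3:83049864-83050113, minus strand): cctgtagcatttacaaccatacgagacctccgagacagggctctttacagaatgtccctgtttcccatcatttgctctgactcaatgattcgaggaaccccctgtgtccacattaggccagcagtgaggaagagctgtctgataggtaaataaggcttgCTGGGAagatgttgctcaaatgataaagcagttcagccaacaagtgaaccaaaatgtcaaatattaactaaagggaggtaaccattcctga

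The core CTGGGA stood in all 3 windows, in the forward direction, and in 27.0% of the 32851 windows of this length in the RefSeq table, counting both strands. In Fgg it began 13 bases before the start, in Fgb 91 and in Fga 121. The longer CTGGGAA, which contains that core, was in the Fgb and Fgg windows and in 9.1% of all windows. The STAT dimer motif TTCNNNGAA was in Fga, beginning 234 bases before the start, and in Fgb, beginning 162 before it, against 7.02% of all windows. A loose C/EBP motif, TTGNNNAA, was in Fga and Fgb and in 33.3% of windows, and TATAAA was in none of the 3 windows and in 12.4% of all. The Fgg window held no match to the STAT dimer or C/EBP letters. These are matches of letters, not measured binding.

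All 3 chain transcripts were higher in every KC-Tie2 library than in any Control library, by about 5-fold for Fga and Fgb and by 16.3-fold for Fgg. The group ranges did not overlap for any of the 3 genes, and KC-Tie2 lay entirely above Control at 9.96% of the 17539 genes tested. Values are normalized counts, the deposited unit, on which the 6 libraries can be compared gene by gene.

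Fga, the alpha chain gene, was at 396, 551 and 440 in Control replicates 1 to 3 and at 3596, 2600 and 1617 in KC-Tie2 replicates 1 to 3. The lowest KC-Tie2 library was thus 2.94 times the highest Control library. The means were 462 ± 79.8 and 2604 ± 990 (SD, n = 3 each), a log2 fold change of 2.43 ± 0.34 (SE) on the log2(value + 1) scale, or 5.39-fold.

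Fgg, the gamma chain gene, was at 63.0, 136 and 97.4 in Control kidneys, in replicate order, against 2433, 1721 and 892 in KC-Tie2 kidneys. Here the gap between the groups was widest, with the lowest KC-Tie2 library 6.55 times the highest Control library. The means were 98.9 ± 36.6 and 1682 ± 771 (SD, n = 3 each), a log2 fold change of 4.03 ± 0.50 (SE), or 16.3-fold.

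Fgb, the beta chain gene, had Control values of 8.40, 21.5 and 24.4 and KC-Tie2 values of 124, 117 and 49.9, in replicate order. It was the scarcest chain in every library, and its lowest KC-Tie2 value was 2.05 times its highest Control value. The means were 18.1 ± 8.50 and 97.0 ± 41.0 (SD, n = 3 each), a log2 fold change of 2.38 ± 0.46 (SE), or 5.19-fold. The authors' deposited table gives ratios of 5.63 for Fga, 5.39 for Fgb and 17.0 for Fgg.

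**Figure D1:**
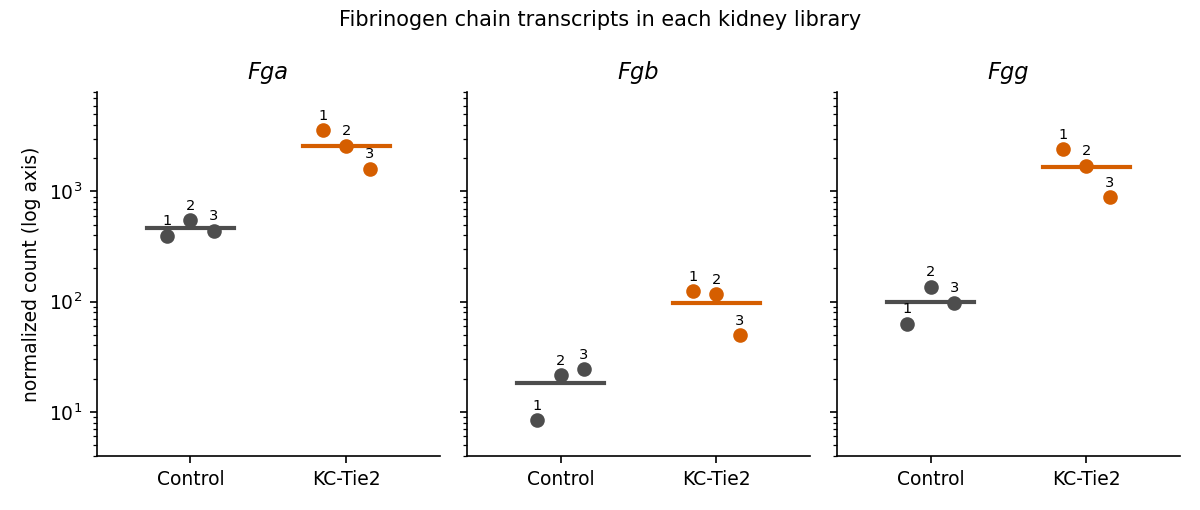
Normalized counts (log axis) of Fga, Fgb and Fgg in the 3 Control and 3 KC-Tie2 libraries, with the replicate number beside each point and the group mean as a bar. Every KC-Tie2 point lies above every Control point, and KC-Tie2 replicate 3 is the lowest of its group for each chain (1617, 49.9 and 892).

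Fgb rested on the fewest reads. Divided by the step between low values in each library, its levels correspond to 8, 26 and 18 reads for Control and 112, 140 and 55 for KC-Tie2. The 8 reads of Control replicate 1 have an exact Poisson 95% interval of 3.45 to 15.8 reads, which covers counting error alone. Fga rested on 325 to 667 reads per Control library and Fgg on 60 to 165, and in KC-Tie2 libraries the lowest were 1782 and 983. These 18 values lay within 0.0567 of a whole number of reads.

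The chains varied together within the KC-Tie2 group. KC-Tie2 replicate 1 was highest and replicate 3 lowest for all 3 genes, an order found at 17.6% of all genes tested. Relative to the Control mean, Fgg stood at 24.6, 17.4 and 9.02 times in KC-Tie2 replicates 1 to 3, Fga at 7.78, 5.62 and 3.50 times and Fgb at 6.88, 6.46 and 2.76 times. The highest KC-Tie2 library exceeded the lowest by 2.22 times for Fga, 2.49 for Fgb and 2.73 for Fgg. In the Control group that range was 1.39 times for Fga, 2.16 for Fgg and 2.90 for Fgb, with Control replicate 1 lowest for each chain. As a description over 6 libraries, deviations from the genotype means had a Pearson r of 0.959 between Fga and Fgg, 0.895 between Fgb and Fgg and 0.777 between Fga and Fgb. These share the library and its scaling. Without KC-Tie2 replicate 3 the folds were 6.67 for Fga, 6.94 for Fgb and 21.5 for Fgg. Without Control replicate 1 they were 5.02, 3.81 and 13.4 in that order.

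The makeup of the chain transcripts also differed. To compare genes, levels were divided by the longest transcript of each gene in GENCODE M21, which is 2587 bases for Fga, 3810 for Fgb and 1741 for Fgg. Per kilobase, Fga was at 179 ± 30.9, Fgg at 56.8 ± 21.1 and Fgb at 4.74 ± 2.23 in Control kidneys (SD, n = 3). In KC-Tie2 kidneys these levels were 1007 ± 383, 966 ± 443 and 25.5 ± 10.8. Fga and Fgg therefore stood apart in Control and side by side in KC-Tie2 kidneys, with Fgb far below both. Among 17485 genes with a length, the Fga level per kilobase lay at percentile 61.7 in Control and 93.4 in KC-Tie2, Fgg at 33.4 and 93.1, and Fgb at 1.2 and 17.9. The Fgb percentiles rest on its long transcript. Per kilobase of its 1443 coding bases the Fgb means were 12.5 in Control and 67.2 in KC-Tie2, and percentiles by coding length were not computed.

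The Fgg to Fga ratio per kilobase was 0.236, 0.368 and 0.329 in Control replicates 1 to 3 and 1.01, 0.984 and 0.820 in KC-Tie2 replicates 1 to 3. Its groups did not overlap, and it was 3.05-fold higher in KC-Tie2 (log2 difference 1.61, with SDs over libraries of 0.33 in Control and 0.16 in KC-Tie2). The ratio varied less between KC-Tie2 libraries than the levels of Fga and Fgg did. The Fgb to Fga ratio was 0.0144, 0.0265 and 0.0376 for Control and 0.0235, 0.0305 and 0.0210 for KC-Tie2. These groups overlapped, with a log2 difference of 0.02 against SDs of 0.70 and 0.28. That difference was -0.02 and -0.30 with 0.5 and 5 added to each value, -0.36 with Control 1 left out and -0.13 with KC-Tie2 2 left out, so it had no set direction. The Fgg to Fgb ratio was 3-fold higher in KC-Tie2, from 16.4, 13.9 and 8.75 to 42.8, 32.3 and 39.1.

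As shares of the summed level per kilobase, Fga made up 74.9% ± 4.39, Fgg 23.1% ± 3.82 and Fgb 1.93% ± 0.80 in Control kidneys (SD, n = 3). In KC-Tie2 kidneys the shares were 51.1% ± 2.81, 47.6% ± 2.72 and 1.27% ± 0.21. The lengths chosen move these shares. By coding length (2367, 1443 and 1329 bases for Fga, Fgb and Fgg), Fga made up 69.9% and 45.9%, Fgg 25.8% and 51.3%, and Fgb 4.34% and 2.76%, for Control and KC-Tie2. Fgb stayed the smallest share in all 6 libraries under either length. The differences in ratio between genotypes do not depend on the length.

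**Figure D2:**
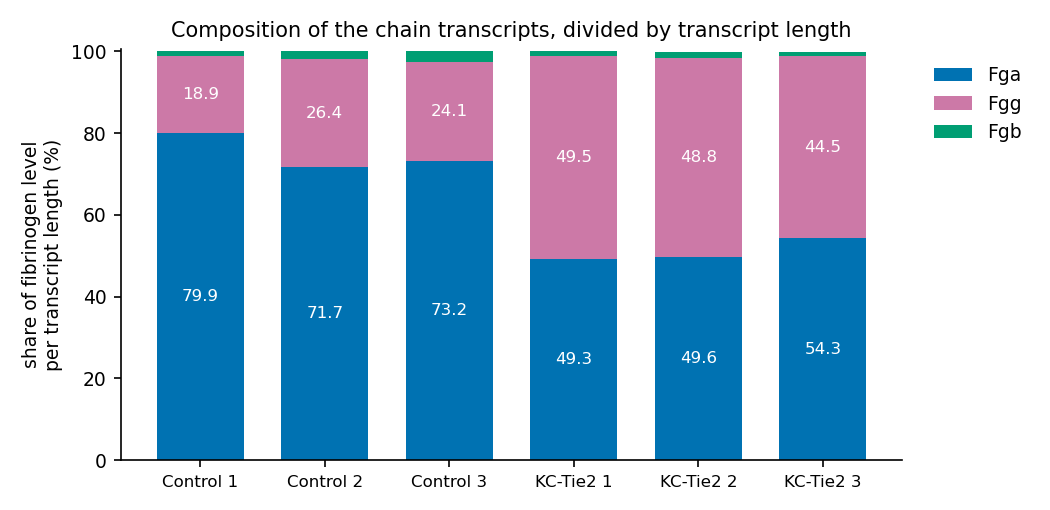
Share of each chain (%) in the summed fibrinogen level per kilobase of transcript, for each of the 6 libraries. Fgg fills 18.9% to 26.4% of the Control bars and 44.5% to 49.5% of the KC-Tie2 bars, and Fgb is the thin top segment.

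No gene around the cluster was called. Of 9 other genes of the table within 1 Mb, 8 of them protein-coding, 0 passed an adjusted p of 0.05 in limma with Benjamini-Hochberg adjustment, 1 had an unadjusted p under 0.05, and 1.69% of all genes were called. Their log2 fold changes ran from -0.34 to 0.37 (median -0.20), with a lowest limma adjusted p of 0.186, at Tmem131l. Plrg1, a splicing factor gene 5.7 kb beyond Fgb, was at 314, 352 and 310 in Control and 377, 344 and 343 in KC-Tie2 libraries (log2 fold change 0.13 ± 0.10). Lrat, which makes retinyl esters and lies 103.8 kb beyond Fgg, was at 134, 144 and 119 and at 157, 164 and 142 (0.22 ± 0.15). The lncRNA Rbm46os, the nearest listed gene on that side at 64.1 kb, was at 12.2 to 27.3 over all 6 libraries. Tlr2, a receptor for bacterial lipoproteins, had the highest of these values (0.37 ± 0.23).

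**Figure D3:**
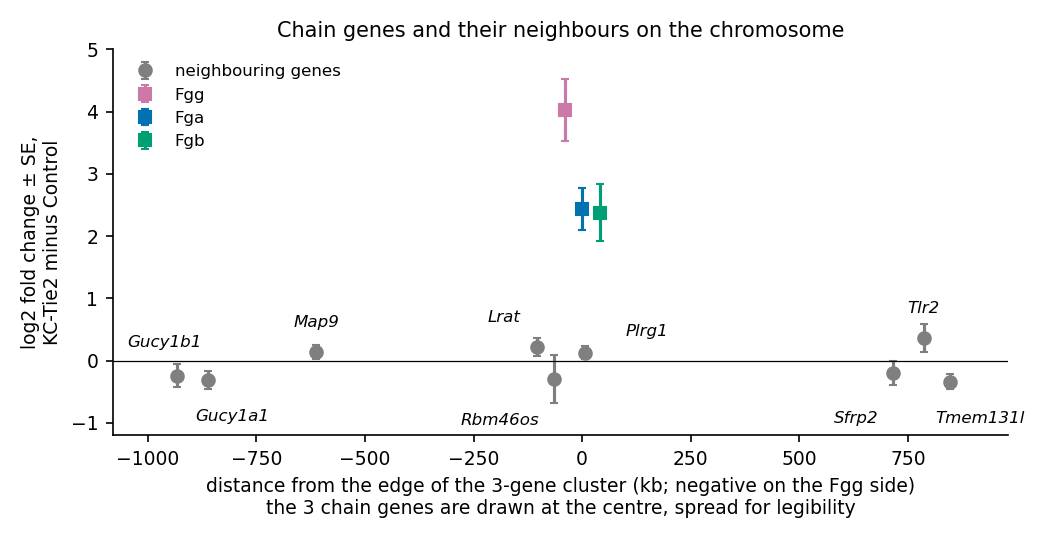
Log2 fold change ± SE (KC-Tie2 minus Control) of the 3 chain genes and of the 9 other listed genes within 1 Mb, against distance in kb from the edge of the cluster. The neighbours lie between -0.34 and 0.37, and the chain genes at 2.38, 2.43 and 4.03.

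Among 29 tested genes of interleukin-6 signalling and of factors known to act on fibrinogen promoters, 2 rose and none fell (limma adjusted p under 0.05), where 0.855% of all genes rose. Stat3, the factor activated through the interleukin-6 receptor, was at 1545, 1653 and 1505 in Control and 3139, 3168 and 2349 in KC-Tie2 libraries (log2 fold change 0.87 ± 0.11, limma adjusted p = 0.00816). Socs3, the feedback inhibitor that STAT3 induces, was at 41.0, 58.6 and 46.0 and at 123, 133 and 75.3 (1.15 ± 0.25, limma adjusted p = 0.0435). Both had KC-Tie2 entirely above Control, as had 5 of the 29 genes in all and 9.96% of all genes tested. KC-Tie2 lay entirely below Control at another 5 of the 29. Stat3 and Socs3 had their lowest KC-Tie2 value in replicate 3, as the chains had, but their highest in replicate 2. The full order of the chains was found at 4 of the 29 (13.8%), beside 17.6% of all genes. The median log2 fold change of the list was 0.05, beside 0.00 over all genes tested.

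No receptor gene of that pathway was called. Il6ra had a log2 fold change of 0.24 ± 0.15 and Il6st, the shared signalling subunit, -0.05 ± 0.07, while Osmr, the oncostatin M receptor, had 0.69 ± 0.20 (limma adjusted p = 0.15). The ligand genes Il6, Il11, Lif and Osm were not analysed here. Of the liver-type factors, Hnf4a had Control and KC-Tie2 means of 20433 ± 776 and 17789 ± 1260 (SD, n = 3 each; limma adjusted p = 0.245). Cebpa had -0.60 ± 0.17, Cebpb 0.44 ± 0.40 and Cebpd 0.45 ± 0.23, none of them called. Fits without 1 library, taking Control 1 to 3 first and then KC-Tie2 1 to 3, called 0, 4, 1, 1, 1 and 2 genes of the list. Stat3 lost its call without Control replicate 1 (limma adjusted p = 0.0557), and Socs3 without Control 1 or 3 (0.173 and 0.152), without KC-Tie2 1 or 2 (0.179 and 0.22) and with eBayes without robust (0.0616).

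Other acute phase genes were measured beside the chains, as a list of 28 of which 13 were tested. Of these, 2 rose and none fell, where 0.855% of all genes rose and 0.838% fell. The log2 fold change was above 0 at 11 of 13, beside 50.3% of all genes, with a median of 0.69. C4b, complement C4, was at 100, 152 and 85.0 in Control and 4070, 4484 and 2659 in KC-Tie2 libraries (log2 fold change 5.05 ± 0.30, limma adjusted p = 0.00742). Cp, which carries copper in plasma, rose 1.86-fold (limma adjusted p = 0.0232). Lcn2, made by injured tubules and by neutrophils, was at 37.8, 66.9 and 31.1 and at 125, 163 and 66.2, overlapping at 1 library (1.35 ± 0.38, limma adjusted p = 0.134). Hp, haptoglobin, another interleukin-6 target of the liver, had another pattern, at 157, 7.43 and 8.12 in Control and 153, 6.67 and 13.6 in KC-Tie2 libraries, high in replicate 1 of both groups. Lbp, which binds lipopolysaccharide, was at 64.3 ± 10.3 and 63.9 ± 14.8 (SD, n = 3 each). Saa1, Saa2, Saa3, Orm1, Orm2, Hpx and Crp were not analysed here. KC-Tie2 replicates 1 to 3 stood in the order of the chains at 6 of the 13 genes (46.2%), beside 17.6% of all genes. In the other lists that share ran from 0% for hepatocyte markers to 37.5% for the fibrinogen receptors described below. The same 6 fits called 0, 4, 1, 1, 1 and 5 acute phase genes. C4b lost its call without Control replicate 1 (0.0616), and Cp without Control 1 or 3 (0.126 and 0.0661) or KC-Tie2 1 or 2 (0.116 and 0.071).

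The coagulation and anticoagulant list holds clotting factors, their inhibitors and receptors, and the enzymes that cross-link fibrin. Of its 25 tested genes 2 rose and none fell, where 0.855% of all genes rose and 0.838% fell. The log2 fold change was above 0 at 12 of 25, beside 50.3% of all genes (median -0.04). Serpina10, an inhibitor of activated factor X, was at 22.1, 18.2 and 20.3 in Control and 86.6, 153 and 52.6 in KC-Tie2 libraries, so that it rose 4.25-fold (log2 fold change 2.09 ± 0.35, limma adjusted p = 0.0163). Tgm2, a tissue transglutaminase that can cross-link fibrin, rose 1.37-fold, from 5396 ± 184 to 7443 ± 907 (SD, n = 3 each; limma adjusted p = 0.0295). F2, the gene of prothrombin, and F7, F9, F10, F11 and F12 were not analysed here. F3, tissue factor, the cell-surface starter of clotting, had a log2 fold change of -0.09 ± 0.13.

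Both subunit genes of factor XIII, which stabilises fibrin, were measured. The Control and KC-Tie2 means were 26.8 ± 8.11 and 24.3 ± 12.2 for F13a1 and 2007 ± 148 and 1753 ± 104 for F13b (SD, n = 3 each; limma adjusted p = 0.87 and 0.241). Among anticoagulants, Proc, protein C, had a log2 fold change of -0.33 ± 0.09 (limma adjusted p = 0.0798), Pros1, its cofactor protein S, 0.42 ± 0.11 (0.0935), and Serpinc1, antithrombin, -0.55 ± 0.19 (0.192). F2rl1, a protease-activated receptor, had 0.37 ± 0.09 (limma adjusted p = 0.0634). The 6 fits without 1 library called 0, 3, 0, 0, 0 and 3 genes of this list. Without Control 1, Control 3, KC-Tie2 1 or KC-Tie2 2, the limma adjusted p was 0.0777, 0.0833, 0.0776 and 0.0771 for Serpina10 and 0.149, 0.128, 0.107 and 0.151 for Tgm2.

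Of 13 tested genes of fibrinolysis, the breakdown of fibrin, none rose and 1 fell, where 0.838% of all genes fell. That gene was Hrg, whose plasma protein binds fibrinogen and plasminogen. It was at 98.7, 57.8 and 169 in Control and 7.77, 12.5 and 20.9 in KC-Tie2 libraries, so that it fell 7.28-fold (log2 fold change -2.86 ± 0.44, limma adjusted p = 0.0158), the opposite direction to the chains. Plat, tissue plasminogen activator, had 0.51 ± 0.23, Plau, urokinase, -0.07 ± 0.15 and its receptor Plaur 0.64 ± 0.34. Serpinf2, the plasmin inhibitor, had -0.29 ± 0.10 (limma adjusted p = 0.199). Plg, plasminogen, was not analysed here. The count was 0 at a mean of at least 100, which leaves Hrg out, and 0, 2, 0, 0, 0 and 2 in the 6 fits without 1 library. Hrg had limma adjusted p-values of 0.0773 and 0.0568 without Control 1 or 3 and of 0.0647 and 0.114 without KC-Tie2 1 or 2.

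**Figure D4:**
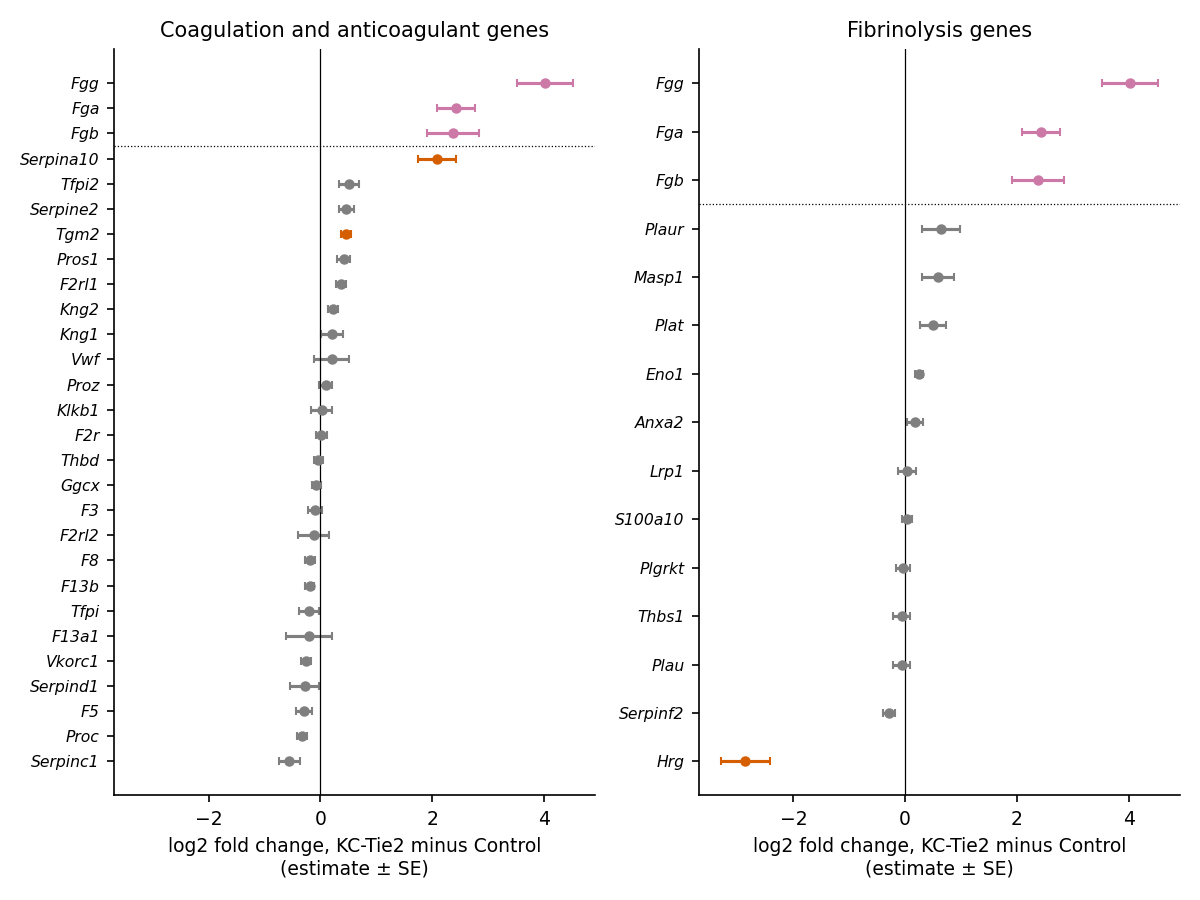
Log2 fold change ± SE (KC-Tie2 minus Control) of tested coagulation and anticoagulant genes (left) and fibrinolysis genes (right), with the 3 chain genes above the dotted line in pink for scale. Orange marks genes with a limma adjusted p under 0.05, which are Serpina10 (2.09), Tgm2 (0.46) and Hrg (-2.86).

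Cell-surface receptors that bind fibrinogen or fibrin had 2 risen members of 16 tested and none that fell, where 0.855% of all genes rose and 0.838% fell (median log2 fold change 0.07). Itgb3, the beta subunit of the platelet and vitronectin receptors, was at 42.0, 47.9 and 69.0 in Control and 128, 113 and 89.8 in KC-Tie2 libraries (log2 fold change 1.06 ± 0.23, limma adjusted p = 0.0438). Its partner subunit genes Itgav and Itga2b had 0.14 ± 0.08 and 0.05 ± 0.17. Icam1, an endothelial and epithelial adhesion molecule that fibrinogen bridges to leukocytes, was at 329, 368 and 292 and at 675, 540 and 449 (0.74 ± 0.15, limma adjusted p = 0.036). Itgam, the leukocyte integrin subunit that binds the gamma chain, had 0.97 ± 0.36 with overlapping groups (limma adjusted p = 0.218). In those 6 fits, 0, 1, 0, 0, 0 and 3 receptor genes were called, and 1 was called with eBayes without robust. Of those fits Itgb3 kept its call only without KC-Tie2 3 (0.0282), with values of 0.0544 to 0.188 in the others. Icam1 lost its call without Control 1 or 3 (0.16 and 0.146) or KC-Tie2 1 or 2 (0.105 and 0.148).

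The chain genes' relatives by structure showed no called member, where 1.69% of all genes were called. The 12 tested have proteins with the fibrinogen-related C-terminal domain shared by the beta and gamma chains. Of these, 0 passed limma's adjusted p of 0.05, and the median log2 fold change was 0.18. Beside 2691 of all 17539 genes tested, 1 of the 12 had an unadjusted limma p under 0.05. That 1 was Fgl1, fibrinogen-like 1, another liver-secreted protein, at 9.45, 12.4 and 2.71 in Control and 18.9, 32.5 and 22.7 in KC-Tie2 libraries (1.64 ± 0.56, limma adjusted p = 0.178). The angiopoietin genes Angpt1 and Angpt2, ligands of Tie2, had -0.03 ± 0.10 and 0.32 ± 0.16. Tek, the gene of Tie2, had Control values of 1073, 1081 and 989 and KC-Tie2 values of 934, 933 and 976 (-0.14 ± 0.07, limma adjusted p = 0.361).

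Markers of hepatocytes, platelets and erythroid cells were set beside the chains. In bulk tissue, a change in the number of cells of a type and a change in RNA per cell cannot be told apart. Of 34 hepatocyte markers, 18 were not analysed here, including Apoa1, Ahsg, Cps1, Cyp7a1 and Mup20. The 16 in the table summed to 24177 to 25200 in Control and 18920 to 22669 in KC-Tie2 libraries. Most of that sum is Apob, the apolipoprotein B gene, with means of 17456 ± 246 and 13379 ± 1400 (SD, n = 3 each). The sum thus mainly follows 1 gene, and whether the Apob reads came from hepatocytes was not tested. Apob was the 1 called marker, where 1.69% of all genes were called, and fell by 0.39 on the log2 scale (limma adjusted p = 0.0438). That call was kept without KC-Tie2 replicate 3 (0.00805) and lost without each of the other 5 libraries (0.0599 to 0.229), with eBayes without robust (0.0534) and at a mean of at least 100 (0.0517). Alb, albumin, the most abundant hepatocyte transcript, was far below Apob, at 136, 122 and 114 in Control and 69.9, 71.7 and 102 in KC-Tie2 libraries. Its KC-Tie2 values all lay below Control (-0.62 ± 0.19, limma adjusted p = 0.134). The markers went both ways: 8 of 16 were above 0 (50.3% of all genes were), with a median log2 fold change of -0.04. Groups did not overlap at 20% of all genes tested, with KC-Tie2 entirely above Control at 9.96%. Among the 16 markers, KC-Tie2 lay entirely above Control at 3 and entirely below at 4. The 3 above were Ambp, which encodes alpha-1-microglobulin and bikunin (1.25 ± 0.44, limma adjusted p = 0.192), Serpina1a, an alpha-1-antitrypsin gene (0.62 ± 0.14, 0.0818), and Apoc3, an apolipoprotein gene (0.45 ± 0.17, 0.236). The 4 below were Alb, Apob, the thyroxine carrier Ttr and Itih2. The part of hepatocyte transcripts in the chain levels was not tested.

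Of 14 platelet and megakaryocyte markers only 3 are in the table, and Pf4 and Ppbp, abundant platelet transcripts, were not analysed here. The 3 summed to 220.5 to 242.8 in Control and 252.2 to 274.2 in KC-Tie2 libraries. Of them, 0 were called by limma, where 1.69% of all genes were called, and 0 had an unadjusted p under 0.05. The 6 erythroid markers summed to 2562 to 3616 in Control and 2364 to 6406 in KC-Tie2 libraries, overlapping. Within that sum Slc4a1 was at 949 to 1413 in Control and 1150 to 1391 in KC-Tie2 libraries, and the cells it came from were not tested. The part of platelet or erythroid transcripts in the chain levels was not tested. Kidney identity was plain from Lrp2, the endocytic receptor of the proximal tubule. It was at 157198 to 168263 in Control and 127971 to 156002 in KC-Tie2 libraries (limma adjusted p = 0.337). Of 14 kidney segment markers 0 were called, and 8 had an unadjusted limma p under 0.05, beside 2691 of all 17539 genes tested. KC-Tie2 lay entirely above Control at 5 of them and entirely below at 4, where groups did not overlap at 20% of all genes. The part of such differences in the chain levels was not tested.

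No tubule injury gene passed the test, where 1.69% of all genes were called. Their sum was 17212 to 22919 in Control and 44741 to 89780 in KC-Tie2 libraries, most of it Spp1, osteopontin, at 12659, 13480 and 10149 and at 58913, 81324 and 35940 (log2 fold change 2.21 ± 0.34, limma adjusted p = 0.0681). The Spp1 groups did not overlap. Of 14 tested, 12 were above 0, beside 50.3% of all genes, and 0 were called by limma. The unadjusted limma p was under 0.05 at 5 of the 14, beside 2691 of all 17539 genes tested. KC-Tie2 replicates 1 to 3 stood in the order of the chains at 3 of the 14 (21.4%), beside 17.6% of all genes. Havcr1, the proximal tubule injury marker KIM-1, was at 20.0, 25.6 and 27.1 in Control and 42.2, 128 and 18.1 in KC-Tie2 libraries, so its groups overlapped. Its KC-Tie2 value was highest in replicate 2 and lowest in replicate 3, as was that of Spp1. The part of tubule injury in the chain levels was not tested.

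**Figure D5:**
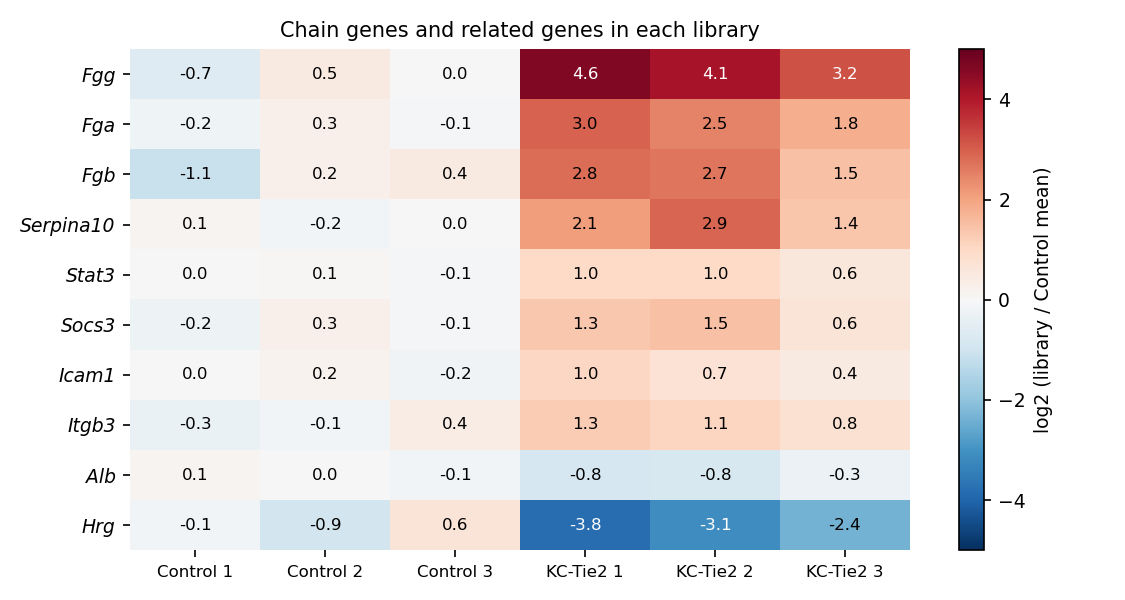
Log2 of each library's normalized count over the Control mean, for the chain genes and genes named beside them (rows) in the 6 libraries (columns), with red above and blue below the Control mean. Fgg is darkest red in the KC-Tie2 columns, Stat3 and Socs3 are paler red, and Alb and Hrg are blue there.

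The genes most like the chains across libraries were sought among 12388 protein-coding genes with a mean of at least 50, by Pearson r with the mean centred log2 profile of the 3 chains over 6 libraries. The first 5 were Ttc22 (r = 0.9967), Hsdl1 (0.9961), Adprh (0.9922), Kazn (0.9919) and Ipo11 (0.9916). Ttc22 was at 81.9, 113 and 100 in Control and 271, 229 and 194 in KC-Tie2 libraries (2.34-fold, limma adjusted p = 0.00742), and it was called in each fit with 1 library left out (highest 0.0469). Kazn rose 1.4-fold (limma adjusted p = 0.021), a call lost without Control 1 or 3 (0.115 and 0.0858) or KC-Tie2 1 or 2 (0.101 and 0.115). The other 3 differed by 1.11- to 1.15-fold between the group means and were not called. These 5 were picked by likeness to a profile that holds the difference between the genotypes. Their folds and adjusted p-values are therefore bound up with that choice and give no separate support. By deviations from the genotype means the first 5 were Eftud2 (0.9992), St6galnac2 (0.9956), Ikbkb (0.9955), Ddhd1 (0.9953) and Dmd (0.9945), with 0 genes in both sets of 5. This St6galnac2 is the lower of 2 entries of that name, at 253 to 321 over the 6 libraries. The other entry, at 2746 to 3130, was not among the 5. The r values are a description of 6 libraries that fall into 2 groups.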

How the data were processed

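Poly(A)-selected kidney libraries, 3 per genotype, were analysed. The deposited expression values are a signal, normalized counts. The submitters' processing notes name Partek 12.5.0, STAR, DESeq2 and the build mm39, without roles. The sources used here do not state annotation, filters or strand use. The authors' deposited comparison table holds p-values and a signed fold score (neither used here), and ratios. Low values fell in steps (0.826 to 1.353 by library): 68.2% to 71.0% of those below 60 were whole multiples to within 0.01, and the step gave reads per value and the depth.

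Genes with a mean of at least 10 (17539) were fitted as log2(value + 1) with limma 3.58.1 in R 4.3.3 (eBayes with trend and robust), two-sided, with Benjamini-Hochberg adjustment over all of them. The script was tested on simulated data. Every adjusted p is limma's, and "rose" and "fell" mean one under 0.05. Members, lists and motifs were chosen with earlier results or the sequences known. Named were the chains, up to 4 called members of each list by size of change (or the 2 of smallest p), fixed genes of the pathway, neighbours within 1 Mb and the genes most alike; other list members are named for their role, with their values seen. Some genes counted in the lists are not reported here by name. Alternatives are in the closing section. Transcript lengths came from GENCODE M21 and promoters from RefSeq, matched by gene ID and symbol (3 of 3).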

Additional observations from a re-analysis of the deposited data

How the results depend on the processing

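The log2 fold changes of the 3 chains kept their direction under each pseudocount, under TMM scaling and with any library left out, at 2.16 to 2.74 for Fga, 1.93 to 2.80 for Fgb and 3.70 to 4.43 for Fgg in the last case. The Fgg to Fga and Fgg to Fgb ratios kept theirs under each pseudocount and with any library left out (1.42 to 1.74 and 1.32 to 1.78 in the last case). The Fgb to Fga ratio changed sign: -0.017 and -0.296 with 0.5 and 5 added, and -0.355 to 0.337 with a library left out. Over all genes 297 were called, and 48 to 682 with a library left out. The ranges were 0 to 3 for coagulation, 0 to 2 for fibrinolysis, 0 to 3 for receptors, 0 to 4 for interleukin-6 signalling and promoter factors, 0 to 5 for the acute phase and 0 to 2 for hepatocyte markers. They were 0 for fibrinogen-related domain genes and platelet markers under each alternative run. The replicate block called 581 genes, with 4 in the coagulation, 4 in the acute phase and 3 in the hepatocyte list. Across genes, deviations of same-numbered samples had r = 0.178, -0.096 and 0.017, within the range of -0.283 to 0.26 for samples of unlike number. Whether same-numbered samples shared a batch or handling was not tested, and the labels give no pairing. The block left the counts of the other lists within 1.5 times. At a mean of at least 100, coagulation, receptors and interleukin-6 signalling each had 1 called gene, and fibrinolysis and hepatocyte markers 0. Serpina10, Itgb3, Socs3 and Hrg lay below that mean and were left out of that fit. Apob was still fitted, with a limma adjusted p of 0.0517, and why it moved was not tested. With eBayes without robust, receptors and interleukin-6 signalling had 1 and hepatocyte markers 0; the cause was not tested. Depth limits Fgb most among the chains, at 8 to 26 reads per Control library.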
